A study of Sus scrofa with 19 samples.

Results

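The genes described here are the pig matrix metallopeptidases (MMPs), their tissue inhibitors (TIMPs), the ADAM and ADAMTS proteases and the ADAMTS-like proteins. A gene was taken when its symbol in the deposited expression table began with MMP, TIMP or ADAM followed by a digit, or with ADAMTS, and it was then found by its Ensembl identifier in the deposited count files. The rule gave 54 members of the 14744 genes in that table and of the 25879 genes counted: 13 MMPs, 4 TIMPs, 13 ADAMs, 19 ADAMTS genes and 5 ADAMTS-like genes. Expression filtering left 50 of the 54 for testing, and ADAM7, ADAMTS13, ADAMTS18 and MMP27 were not tested. Of the genes with names of the same pattern, 12 were counted but not listed in the table, among them the collagenases MMP1, MMP8 and MMP13 with at most 1, 9 and 4 counts in a library.

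These zinc endopeptidases remodel the matrix of the heart. MMPs are made as inactive proenzymes, cut collagens, gelatin, elastin and adhesive glycoproteins once activated, and are blocked by TIMPs, which bind the active site. ADAMs are mostly membrane-bound sheddases that release the outer part of growth factors, cytokines and receptors, whereas the secreted ADAMTS proteases trim procollagens, fibrillin microfibrils and proteoglycans, and the ADAMTS-like proteins share their matrix-binding domains without a protease domain.

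RNA-seq was carried out on myocardium of 19 large white pigs, described as female, with 1 library from each pig. Groups are given by the labels of the count files. DOX pigs (n = 5) received doxorubicin and MYO pigs (n = 5) its liposomal form Myocet, both at 60 mg/m2 in each of 3 cycles, and their hearts were taken 3 months after the first injection. RemoLV pigs (n = 3) had a 90 min balloon occlusion of the left anterior descending artery with reperfusion, and the sample is posterior wall remote from the infarct. Hyper pigs (n = 3) carried a stent in the descending aorta from a juvenile age, which became a stenosis as they grew. Control pigs (n = 3) are described both as sham controls and, in the methods, as untreated animals of equal age. RemoLV, Hyper and Control were followed for 6 months. The wall sampled in DOX, MYO, Hyper and Control was the anterior wall, and ages were not given in the sources used here.

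Library totals ranged from 9527710 to 20370209 counts. The sample columns of the expression table did not all carry the names of the matching count files. In 8 of 19 columns the file had another group label: all 3 RemoLV and all 3 Control libraries were exchanged, and DOX5 and MYO1 changed places. Every test between groups was therefore also made with the table names, whereas levels and ratios of counts are given by file label only. The comparison of DOX and MYO together with Hyper holds the same 13 libraries under both namings. The 3 libraries labelled RemoLV went against their label as left ventricle: MYL4, the atrial myosin light chain, reached 6029 to 8130.0 CPM there and at most 21.9 elsewhere, while MYL2, the ventricular light chain, was at 18.6 to 115 CPM against at least 8975 in all 16 others. A second atrial light chain, MYL7, had 3281 to 4770.0 CPM in these 3 but also 736 to 2379 CPM in DOX and MYO and 1229 in Hyper3, against 59.1 to 111 CPM in Control. In the 10 DOX and MYO libraries the Y-linked gene DDX3Y was at 96.1 to 177 CPM although the pigs are labelled female, and it reached at most 0.137 CPM in the other 9. The DOX and MYO pigs also came from an earlier study with a shorter follow-up, so that drug, sex, study and follow-up cannot be told apart in comparisons of DOX and MYO with the other groups.

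Counts scaled to a common library size by the TMM method of edgeR (CPM) were divided by the length of the longest transcript to compare genes with one another. On this scale of mean CPM per kb over the 19 libraries, TIMP3, the matrix-bound inhibitor of MMPs, ADAM17 and aggrecanases, was the most abundant member with 94.8. MMP2, gelatinase A, followed with 56.5, then TIMP2, which also takes part in MMP2 activation, with 41.4. ADAMTS1, a versican-cleaving protease, had 29, TIMP1 25.9 and the sheddase ADAM10 23.6 CPM per kb. MMP9, gelatinase B of leukocytes, was among the scarcest with 0.168. TIMP3 alone held 62.5% to 83.6% of all TIMP counts of a library. The group differed for 38 of the 50 tested members (edgeR quasi-likelihood F test over the 5 groups, adjusted p at most 0.05), against 63.3% of all 13552 genes tested, and these were 9 of 12 MMPs, 2 of 4 TIMPs, 8 of 12 ADAMs, 15 of 17 ADAMTS genes and 4 of 5 ADAMTS-like genes.

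**Figure D1:**
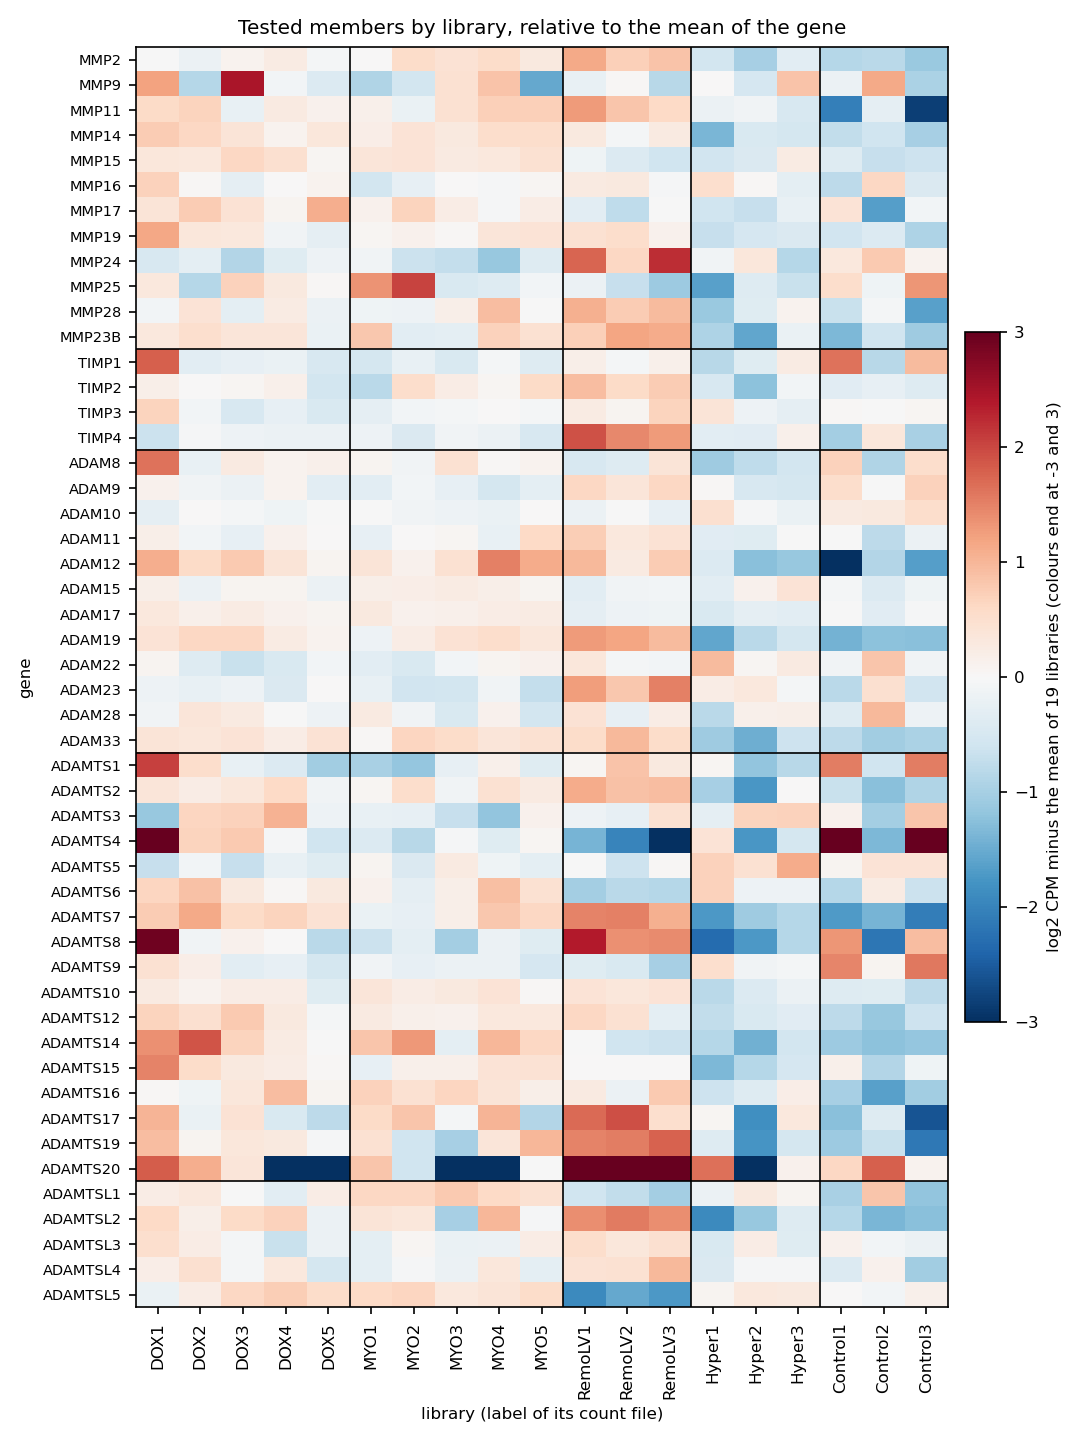
Each tested member (row) in each of the 19 libraries (column), as log2 CPM minus the mean of that gene over all libraries. The 3 RemoLV-labelled columns are red in most MMP, ADAM and ADAMTS rows and blue for ADAMTSL5, whereas DOX1, Control1 and Control3 stand out for ADAMTS1, ADAMTS4 and TIMP1.

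The first comparison asked how the doxorubicin hearts differed from those with pressure overload. DOX and MYO together had higher levels of 18 tested members than Hyper and lower levels of 2, with 15.8% of all genes tested higher and 16.9% lower. The median log2 fold change was 0.57 over the 50 members and 0.03 over all genes. By subfamily, 6 of 12 MMPs, 5 of 12 ADAMs, 6 of 17 ADAMTS genes, 1 of 5 ADAMTS-like genes and 0 of 4 TIMPs were higher. The 2 members that were lower were ADAMTS5 and ADAM22. Table names gave the same 18 and 2. With the RemoLV-labelled libraries left out of the fit, 17 members were higher and 2 lower (15.2% and 16.4% of all genes). Without Hyper1 the 2 counts were 13 and 1, with 1103 genes higher and 1427 lower of 13795. For the TIMPs, 1 of 4 had an unadjusted p under 0.05 in edgeR (43.5% of all genes), and DESeq2 called TIMP2 (35.3% of all genes called).

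To give the sequence context of members that moved together, the 250 bases before the RefSeq gene start (build Sscrofa11.1) are shown for MMP2, MMP14 and ADAM33, 3 of the members that were higher. The windows are chr6:30087032-30087281 on the minus strand, chr7:76185932-76186181 on the minus strand and chr17:32022852-32023101 on the plus strand. They are written 5′ to 3′ in the direction of transcription, and capitals mark each match to the GC box GGGCGG on either strand, which numbered 6 in MMP2 (some of them overlapping), 2 in MMP14 and 1 in ADAM33.
MMP2: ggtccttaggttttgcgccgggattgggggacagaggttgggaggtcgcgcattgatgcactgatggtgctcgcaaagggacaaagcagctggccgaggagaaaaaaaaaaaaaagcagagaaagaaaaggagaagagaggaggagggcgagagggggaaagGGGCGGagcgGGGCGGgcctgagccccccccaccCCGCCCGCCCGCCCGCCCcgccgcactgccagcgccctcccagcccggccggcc
MMP14: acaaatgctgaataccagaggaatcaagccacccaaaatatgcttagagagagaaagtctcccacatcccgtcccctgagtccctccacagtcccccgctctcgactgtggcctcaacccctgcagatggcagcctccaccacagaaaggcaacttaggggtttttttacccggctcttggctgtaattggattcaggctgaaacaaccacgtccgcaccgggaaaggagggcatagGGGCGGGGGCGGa
ADAM33: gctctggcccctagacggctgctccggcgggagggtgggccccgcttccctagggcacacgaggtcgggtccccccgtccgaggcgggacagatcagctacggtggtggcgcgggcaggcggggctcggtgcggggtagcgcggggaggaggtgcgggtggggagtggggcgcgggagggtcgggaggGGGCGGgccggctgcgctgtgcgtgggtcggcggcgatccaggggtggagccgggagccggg
The GC box was found in 44.4% of 20664 windows of protein-coding genes and in 30 of the 54 members. The AP-1 motif TGANTCA was present in 5.48% of all windows and in 4 members, and the TATA box TATAAA in 10.4% and in 5. The cyclic AMP response element TGACGTCA (1.63% of windows) and the CArG box (1.27%) were in 0 members. Motifs were searched on both strands, a match describes letters only, and the starts are those of gene models.

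Among the MMPs, MMP14, the membrane-type collagenase that activates proMMP2, was measured at 116, 105, 89.8, 73.1 and 86 CPM in DOX1 to DOX5 and at 78, 90.3, 83.9, 98.6 and 98 CPM in MYO1 to MYO5. Hyper had 26.4, 49.9 and 47.6 CPM, so that all 10 doxorubicin libraries lay above the 3 Hyper libraries. The log2 fold change was 1.15 ± 0.17 (SE, adjusted p = 8.86e-05) by edgeR. MMP2 was at 156, 140.5, 172, 188 and 151 CPM in DOX and at 159.5, 234, 216, 232 and 195 CPM in MYO. With 108, 79.3 and 127 CPM, Hyper was again below every doxorubicin library, and the log2 fold change was 0.81 ± 0.15 (SE, adjusted p = 0.000444). MMP15, a further membrane-type MMP, rose by 0.58 ± 0.15 (SE, adjusted p = 0.00656) on the log2 scale, although Hyper3 with 84.4 CPM lay inside the doxorubicin range of 74.4 to 109 CPM. It did not pass without Hyper1 or without Hyper2 (adjusted p of 0.0738 and 0.0534). MMP23B, a small MMP with an immunoglobulin-like domain, rose by 1.11 ± 0.28 (SE, adjusted p = 0.00599), and lost the call without Hyper2 (adjusted p of 0.0503). MMP17, a GPI-anchored MMP, and MMP19, a soluble MMP of stromal tissue, also passed. MMP11, the furin-activated stromelysin-3, spanned 89.5 to 172 CPM in the doxorubicin libraries and 74.6 to 97.2 in Hyper and did not pass.

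**Figure D2:**
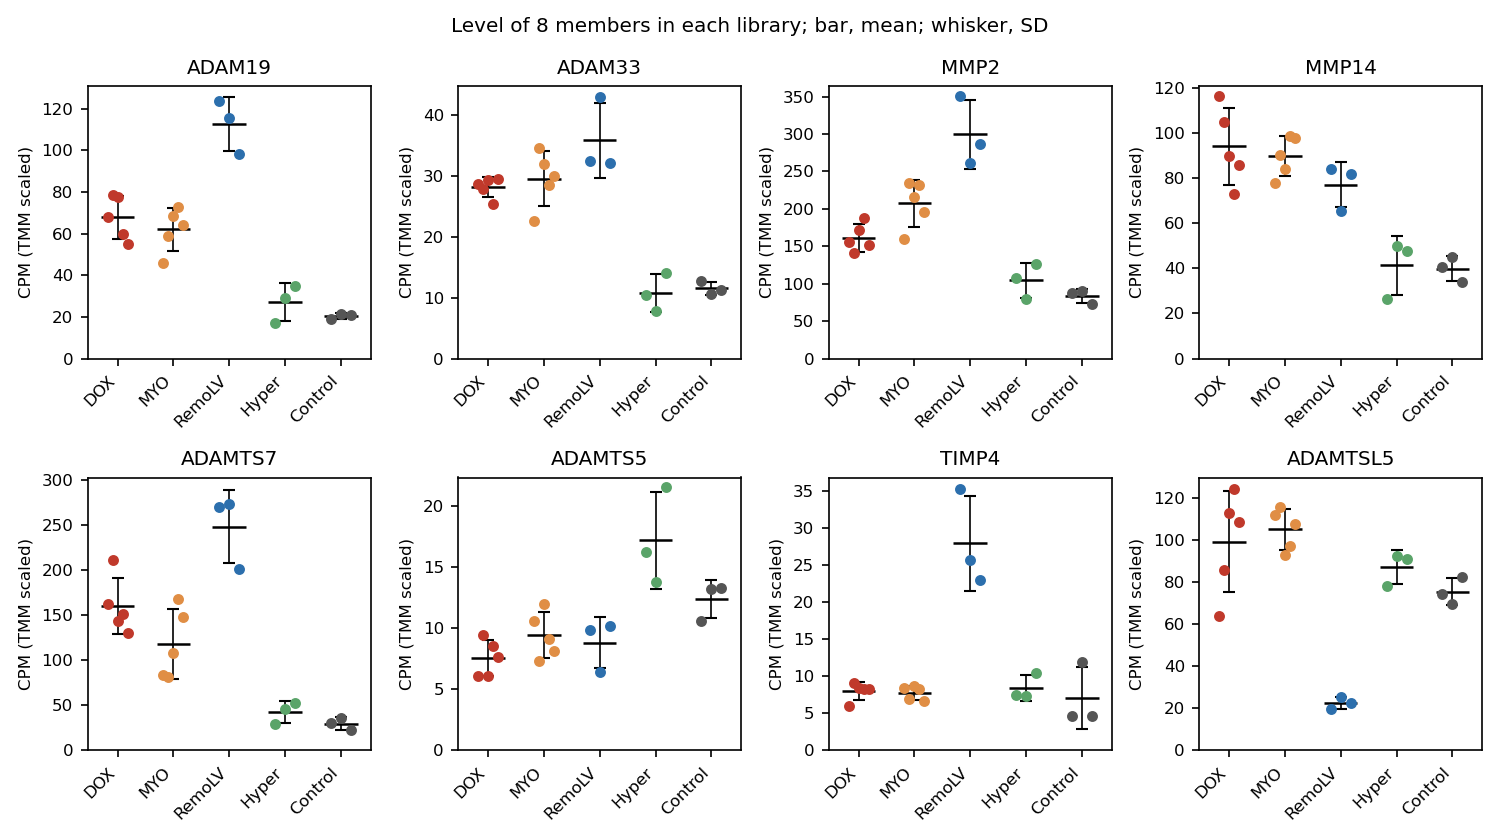
CPM of 8 members in every library by file label, each point being 1 library, the horizontal bar the group mean and the whisker the SD. ADAM19, ADAM33, MMP14 and ADAMTS7 lie higher in every DOX, MYO and RemoLV-labelled library than in any Hyper or Control library, TIMP4 is highest and ADAMTSL5 lowest in the RemoLV-labelled libraries.

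The ADAMs with the smallest p-values were ADAM33 and ADAM19, both metalloproteinase sheddases of mesenchymal cells. ADAM33 was at 28.6, 27.8, 29.3, 25.4 and 29.5 CPM in DOX and 22.5, 34.6, 31.9, 28.4 and 29.9 CPM in MYO. Hyper had 10.4, 7.83 and 14.1 CPM, with no overlap, and the log2 fold change was 1.41 ± 0.16 (SE, adjusted p = 4.53e-06) by edgeR. ADAM19, which is required for valve and septum formation in the embryonic heart, was at 67.7, 78.4, 77.7, 59.6 and 55 CPM in DOX and 45.9, 58.8, 68.6, 72.8 and 64 CPM in MYO. Its Hyper values of 17.2, 29 and 34.9 CPM were lower than all 10, and the log2 fold change was 1.26 ± 0.18 (SE, adjusted p = 5.32e-05). ADAM17, which sheds TNF-alpha and EGF receptor ligands, changed little in size but with a narrow spread, from 19.2 to 21.8 CPM in Hyper to 27.6 to 32.5 CPM in DOX and MYO, a log2 fold change of 0.54 ± 0.09 (SE, adjusted p = 0.000173). ADAM12, a sheddase of HB-EGF, was low in all libraries, with 2.69 to 7.45 CPM against 0.978 to 1.85 CPM, and rose by 1.69 ± 0.42 (SE, adjusted p = 0.00484). ADAM8, an ADAM of leukocytes, was the other that passed. ADAM22, a receptor without protease activity, fell, with a log2 fold change of -0.68 ± 0.21 (SE, adjusted p = 0.0208), and its call was lost without Hyper1 (adjusted p of 0.291). ADAM15 and ADAM23 did not pass.

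Within the ADAMTS genes, ADAMTS7, which cleaves cartilage oligomeric matrix protein, had 162, 211, 143, 151 and 129.7 CPM in DOX and 83.4, 80.6, 108, 168 and 148 CPM in MYO. The Hyper libraries had 28.9, 45.5 and 52.7 CPM and did not overlap with them. The log2 fold change by edgeR was 1.69 ± 0.25 (SE, adjusted p = 6.17e-05). ADAMTS12, its closest relative, rose by 0.86 ± 0.19 (SE, adjusted p = 0.00205). Of the 3 procollagen N-proteinases, ADAMTS2 rose by 1.01 ± 0.26 (SE, adjusted p = 0.0057) and ADAMTS14 by 1.88 ± 0.42 (SE, adjusted p = 0.00238). ADAMTS2 spanned 31.3 to 51.8 CPM in the doxorubicin libraries and 10.1 to 34.3 CPM in Hyper, so that Hyper3 overlapped with them. ADAMTS14 was scarce, with 2.19 to 10.4 CPM against 0.903 to 1.81 CPM. ADAMTS3, the last of these enzymes, had overlapping ranges and did not pass. ADAMTS10, a fibrillin-binding member, and ADAMTS15, a versicanase, passed as well. The aggrecanase ADAMTS5 went the other way: it had 16.2, 13.8 and 21.5 CPM in Hyper and 6.05 to 11.9 CPM in DOX and MYO, a log2 fold change of -1.03 ± 0.17 (SE, adjusted p = 0.000248). Of the members described here, MMP9, MMP17, MMP19, MMP23B, ADAM8, ADAM10, ADAM12, ADAM22 and the ADAMTS genes 3, 4, 5, 8, 9, 10, 15 and 20 are outside the rule by which genes were named and were chosen after their values were seen. ADAMTSL2, which binds fibrillin-1 and latent TGF-beta binding protein, rose by 1.38 ± 0.34 (SE, adjusted p = 0.0051) and lost the call without Hyper1 (adjusted p of 0.0516).

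**Figure D3:**
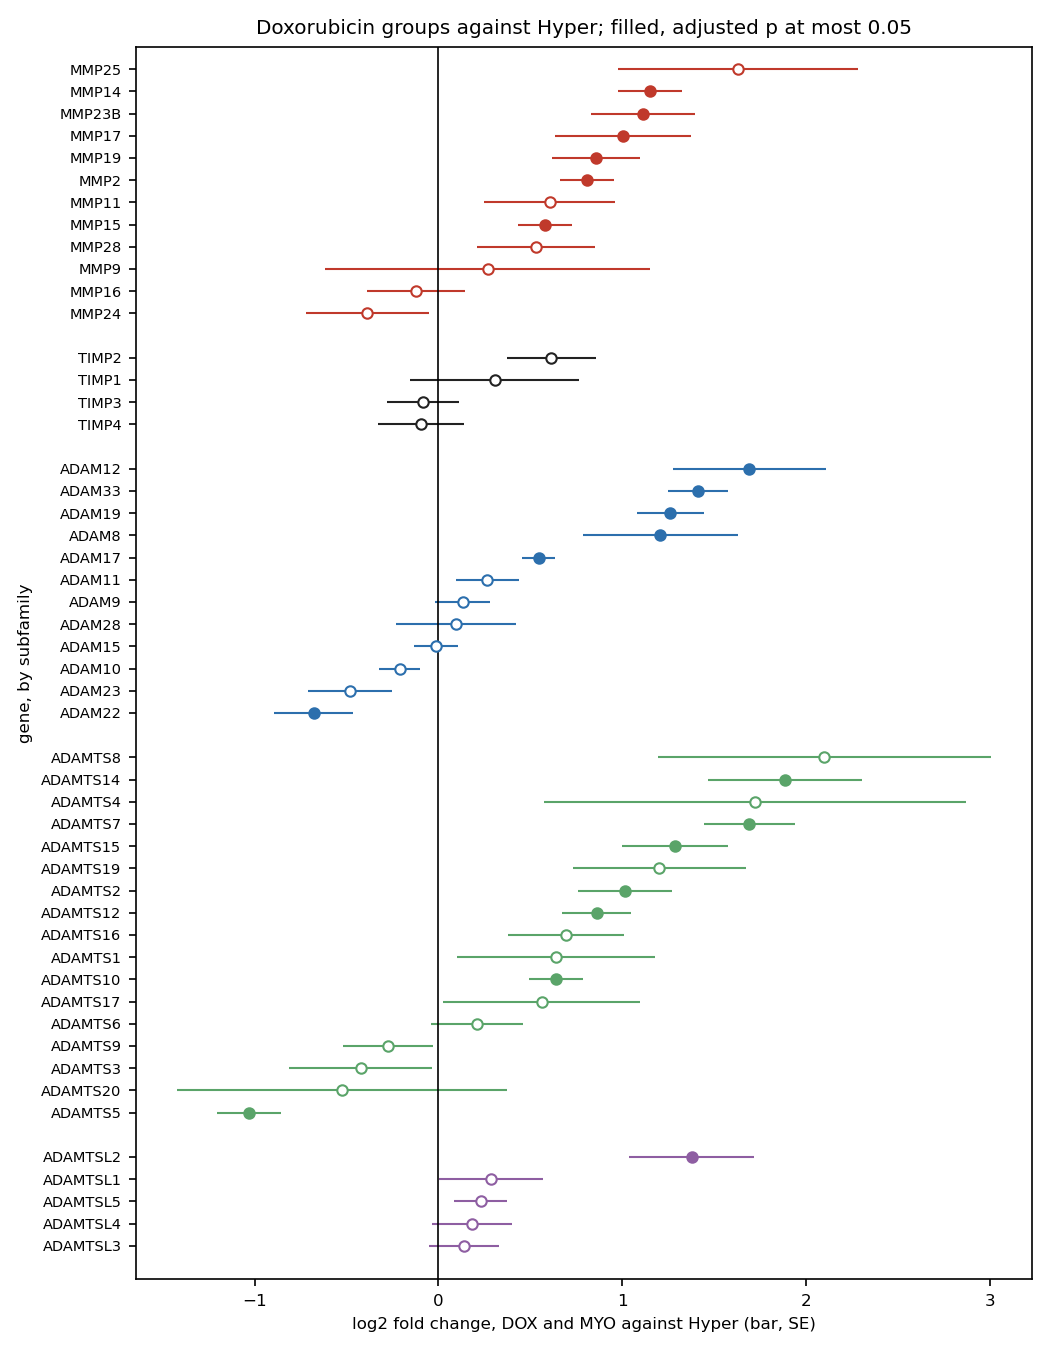
Log2 fold change of each tested member between the 10 DOX and MYO libraries and the 3 Hyper libraries, by subfamily, with the SE as bar. Filled points have an adjusted p of at most 0.05: 18 lie to the right of 0, ADAMTS5 and ADAM22 to the left, and none is a TIMP.

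None of the inhibitors reached the threshold. TIMP2 had 94.6, 56.1 and 124 CPM in Hyper, 147, 133, 137, 146 and 89.6 CPM in DOX and 75.2, 190.4, 154, 137 and 196 CPM in MYO. The ranges overlapped, since DOX5 and MYO1 were lower than the other 8 doxorubicin libraries, and the log2 fold change was 0.61 ± 0.24 (SE, adjusted p = 0.0587) by edgeR. TIMP2 passed without MYO1, without DOX5 or without Hyper3 (adjusted p of 0.0117, 0.0359 and 0.0207). TIMP1 had a log2 fold change of 0.31 ± 0.46 (SE, adjusted p = 0.639), which turned to -0.08 without DOX1. TIMP3 had -0.08 ± 0.19 (SE, adjusted p = 0.769). TIMP4, known for expression in heart but here the scarcest TIMP with 1.9 CPM per kb, had -0.10 ± 0.23 (SE, adjusted p = 0.778). These last 2 changed sign without Hyper1 (0.14) and without Hyper3 (0.09), respectively.

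Genes that work around these proteases were taken from lists of known functions, and the share of all genes tested was 15.8% higher and 16.9% lower, as above. In DOX and MYO against Hyper, 5 of 15 tested genes that activate MMPs or escort ADAMs were higher and 0 lower, with a median log2 fold change of 0.40. The iRhom genes RHBDF2 and RHBDF1, which carry ADAM17 to the cell surface, rose by 1.67 ± 0.19 (SE, adjusted p = 4.25e-06) and 1.01 ± 0.18 (SE, adjusted p = 0.00032). Urokinase (PLAU) rose by 1.39 ± 0.43 (SE, adjusted p = 0.018), TSPAN15, the tetraspanin partner of ADAM10, by 0.80 ± 0.21 (SE, adjusted p = 0.0069), and the proprotein convertase FURIN by 0.57 ± 0.21 (SE, adjusted p = 0.0461). Of 10 other inhibitors and proteins of protease clearance, the serpin SERPINE2 and the matricellular THBS2, which takes part in MMP2 clearance, were higher and A2M, which traps proteases of all classes, was lower, with a log2 fold change of -1.31 ± 0.38 (SE, adjusted p = 0.0134). Among 11 matrix substrates 8 were higher and 0 lower. Elastin (ELN) rose by 1.59 ± 0.34 (SE, adjusted p = 0.00196), fibrillin-2 (FBN2) by 1.71 ± 0.23 (SE, adjusted p = 2.82e-05) and COL1A1 by 1.23 ± 0.28 (SE, adjusted p = 0.00257). Of 13 tested membrane proteins that ADAMs shed, 0 passed in either direction, and their median log2 fold change was 0.03. In these bulk samples, a change in the share of a cell type and a change in RNA per cell cannot be told apart. Of 8 fibroblast markers, the collagens COL1A1, COL1A2 and COL3A1, of which COL1A1 and COL3A1 are also in the list of matrix substrates, passed as higher. PDGFRA, LUM, TCF21, POSTN and DCN did not, with log2 fold changes of 0.48, 0.18, 0.51, 0.33 and -0.16. The 8 summed to 4616 to 7179 CPM in DOX and MYO and to 1572 to 3934 CPM in Hyper, and without the 3 collagens to 560.4 to 804.5 and 443.5 to 820.0 CPM, which overlap. Of markers of other cell types, VWF, KDR and TIE1 among 5 of endothelium (0.41, 1.05 and 0.48), CD68 and CSF1R among 5 of macrophages (0.73 and 0.61), CNN1 of smooth muscle (1.25), CD79A of lymphocytes (1.14), IRX4 of ventricular myocytes (1.35) and the atrial light chains MYL4 and MYL7 (3.19 and 1.17) also passed as higher. CD163 of macrophages (-0.68) and muscle creatine kinase CKM (-0.92), which heart muscle also expresses, passed as lower, and 0 of 5 neutrophil and 0 of 3 red blood cell markers passed. The part of these markers in the differences was not tested.

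In the libraries labelled RemoLV, 23 tested members were higher than in those labelled Control and 4 lower, with 23.1% and 24.0% of all genes tested (edgeR). Higher were 7 of 12 MMPs, 2 of 4 TIMPs, 5 of 12 ADAMs, 7 of 17 ADAMTS genes and 2 of 5 ADAMTS-like genes. The median log2 fold change was 0.83 over the members. With the table names the same libraries are exchanged, so that every RemoLV against Control difference turns, and 4 members were higher and 23 lower in RemoLV (24.0% and 23.2% of all genes). Against Hyper, 26 members were higher and 3 lower in the libraries labelled RemoLV (17.0% and 18.6% of all genes), whereas the table names gave 0 in edgeR with 9 at an unadjusted p under 0.05 (18.2% of all genes). DESeq2 called 2 with these names (2.50% of all genes), and edgeR 13 without the library that the table names RemoLV2 (18.6%).

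ADAM19 was higher in the RemoLV-labelled libraries than anywhere else, with 124, 116 and 98.4 CPM against 18.8, 21.4 and 21.1 CPM in Control. The log2 fold change was 2.46 ± 0.22 (SE, adjusted p = 1.97e-07) by edgeR. MMP2 had 350.3, 262 and 286 CPM against 87.2, 89.8 and 73 CPM, a log2 fold change of 1.84 ± 0.18 (SE, adjusted p = 4.67e-07). ADAMTS7 had 270.0, 274 and 201 CPM against 29.6, 36 and 22.4 CPM, with 3.08 ± 0.30 (SE, adjusted p = 4.83e-07). For ADAM19 and MMP2 the 3 libraries lay above all 16 others, while ADAMTS7 in DOX2 (211 CPM) reached into their range. In these libraries all 5 tested atrial markers passed as higher and all 6 ventricular markers as lower. The 8 fibroblast markers summed to 10730 to 12400 CPM against 2095 to 3489 CPM in Control, of which the 3 collagens made up 9646 to 11260 and 1546 to 2824 CPM. The collagens, DCN and POSTN passed as higher, POSTN being high in RemoLV3 only (55.9, 48.4 and 220.3 CPM), while LUM, PDGFRA and TCF21 did not pass, with log2 fold changes of 0.22, 0.56 and -0.56. Of other cell types, CD68 and CSF1R of macrophages (1.45 and 0.85) and CD79A of lymphocytes (2.03) passed as higher. CD163 and CD14 of macrophages (-1.36 and -0.99), PECAM1 and CDH5 of endothelium (-0.66 and -0.38), MYLK of smooth muscle (-1.31), WT1 of mesothelium (-2.97) and muscle creatine kinase CKM (-1.73) passed as lower. So did all 3 red blood cell and 3 of 5 neutrophil markers, with HBB at 39.2, 18.7 and 9.27 CPM against 337, 35.1 and 325 CPM. The part of these markers in the differences was not tested.

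The inhibitors TIMP4 and TIMP2 also passed here. TIMP4 was at 35.2, 25.6 and 22.9 CPM in the RemoLV-labelled libraries, 7.49, 7.3 and 10.4 CPM in Hyper and 4.55, 11.9 and 4.66 CPM in Control. All 3 were far above the 4.55 to 11.9 CPM of the 16 others, with a log2 fold change of 1.98 ± 0.29 (SE, adjusted p = 3.61e-05) against Control and 1.73 ± 0.29 (SE, adjusted p = 0.000154) against Hyper. TIMP2 had 250.3, 195 and 221 CPM in these libraries and 104, 111 and 100.5 CPM in Control, with 1.08 ± 0.29 (SE, adjusted p = 0.0054) against Control and 1.28 ± 0.29 (SE, adjusted p = 0.00238) against Hyper. The ranges overlapped with MYO, where MYO5 at 196 CPM lay above RemoLV2. TIMP3 had a log2 fold change of 0.34 ± 0.24 (SE, adjusted p = 0.296) against Hyper. RECK, a membrane-anchored inhibitor of MMPs, rose with them, by 1.21 ± 0.18 (SE, adjusted p = 3.22e-05) against Control.

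Opposite to these stood ADAMTSL5, a microfibril-associated ADAMTS-like protein. It had 19.7, 25.4 and 22.2 CPM in the RemoLV-labelled libraries and 74.3, 69.8 and 82.4 CPM in Control. All 3 were lower than each of the 16 others, whose lowest was DOX1 with 64.1 CPM, and the log2 fold change was -1.75 ± 0.19 (SE, adjusted p = 1.42e-06) against Control and -1.96 ± 0.19 (SE, adjusted p = 5.65e-07) against Hyper. ADAMTSL1 (punctin-1) was at 38, 34.2 and 28.4 CPM there, but Control ranged from 25.2 to 102 CPM and it did not pass. ADAMTSL4, a fibrillin-1 binding protein, and ADAMTSL2 were higher, at 63.1, 64.4 and 91.6 and 22.2, 25 and 22.2 CPM.

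ADAM23, an ADAM without protease activity best known from nerve cells, had 10.3, 7.61 and 12.5 CPM in the RemoLV-labelled libraries and 2.39, 6.06 and 2.82 CPM in Control, with a log2 fold change of 1.42 ± 0.29 (SE, adjusted p = 0.000647) by edgeR. MMP24, a membrane-type MMP of neural tissue, had 6.05, 2.71 and 8.47 CPM against 2.17, 3.03 and 1.83 CPM and a log2 fold change of 1.27 ± 0.39 (SE, adjusted p = 0.0113). The ranges of MMP24 overlapped, and its call was lost without RemoLV3 or without Control3 (adjusted p of 0.0871 and 0.0556). Elastin was the matrix substrate with the largest change, at 1229, 2261 and 1918 CPM against 57.1, 62.8 and 25.2 CPM, and a log2 fold change of 5.22 ± 0.45 (SE, adjusted p = 1.65e-07). In all, 8 of 11 matrix substrates were higher and 0 lower.

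Each doxorubicin group was also compared with Control, and these comparisons share the 3 Control libraries. In DOX, 20 tested members were higher and 5 lower (21.0% and 21.1% of all genes), and in MYO 21 were higher and 7 lower (20.7% and 21.7%). The number lower in DOX was 2 without Control3 (14.4% of all genes) and 8 without DOX1 (21.6%), and in MYO it was 3 without Control3 (14.9%). MMP14 had a log2 fold change of 1.24 ± 0.19 (SE, adjusted p = 7.93e-05) in DOX and 1.17 ± 0.19 (SE, adjusted p = 0.000128) in MYO (edgeR), with Control at 40.6, 45 and 34 CPM. MMP15 rose by 0.95 ± 0.17 (SE, adjusted p = 0.000266) in DOX. ADAM17 rose by 0.32 ± 0.10 (SE, adjusted p = 0.0129) in DOX, a call that was lost without Control2 (adjusted p of 0.0734) or when only the DOX and Control libraries were fitted (0.0541), and by 0.34 ± 0.10 (SE, adjusted p = 0.00817) in MYO. With table names, in which Control is the set of libraries labelled RemoLV, 7 members were higher and 14 lower in DOX (15.0% and 14.6% of all genes), and 5 and 14 in MYO (14.8% and 14.4%). Without the table's Control1 the number lower in DOX was 7 (1519 of all 13748 genes). With these names MMP14 had a log2 fold change of 0.26 (adjusted p = 0.292) in DOX and a log2 fold change of 0.24 (adjusted p = 0.334) in MYO. Markers of other cell types moved with these comparisons. In DOX, MYL7 and MYL4 were higher (4.03 and 2.28 on the log2 scale), as were the 3 collagens, VWF and TIE1 of endothelium (0.40 and 0.55), CD68, CSF1R, CD79A, IRX4 (1.14) and WT1 (1.00). All 3 red blood cell markers (HBB -2.33), CD163 (-1.05), MYLK of smooth muscle (-1.80), PECAM1 (-0.37), S100A12 of neutrophils (-2.04) and CKM (-0.87) were lower. In MYO, MYL7 (3.51), MYL4 (2.39), the collagens, TIE1 (0.98), CSF1R, CD79A, IRX4 (1.10) and WT1 (1.18) were higher. MYLK (-1.97), CD163 (-1.08), FHL2 (-0.95), PDGFRA, AHSP, CKM (-0.71) and 3 of 5 neutrophil markers were lower. Their part in the differences of members was not tested.

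ADAMTS9, a versicanase of the vessel wall, fell in both groups, with a log2 fold change of -1.23 ± 0.27 (SE, adjusted p = 0.00148) in DOX and -1.43 ± 0.27 (SE, adjusted p = 0.000448) in MYO. Control had 90.9, 34.9 and 98.4 CPM against 44.8, 37.7, 26.3, 27.7 and 22.8 CPM in DOX and 30.3, 27.4, 29, 28.9 and 22.8 CPM in MYO. Control1 and Control3 were higher than every other library, whereas Control2 was inside the DOX range. With table names it had a log2 fold change of 0.61 (adjusted p = 0.0982) in DOX and a log2 fold change of 0.26 (adjusted p = 0.499) in MYO. ADAMTS9 was also lower in the RemoLV-labelled libraries, with a log2 fold change of -1.77 ± 0.31 (SE, adjusted p = 0.000198). ADAM10, the constitutive sheddase, had 63.3, 63.9 and 75.1 CPM in Control, 43.4 to 52.8 CPM in DOX and MYO and 44.2 to 51.7 CPM in the RemoLV-labelled libraries, and passed as lower in DOX, MYO and RemoLV. With table names, Control is the set of libraries labelled RemoLV, whose range lies inside that of DOX and MYO, and the difference between RemoLV and Control turns.

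Between DOX and MYO, 0 members passed in edgeR or DESeq2 under either naming. Of all genes, 0 passed in edgeR, and 0.0148% with file labels and 0.221% with table names in DESeq2. An unadjusted p under 0.05 was reached by 4 of the 50, near the share of 7.08% over all genes. They were ADAMTS1, ADAMTS4 and ADAMTS8, for which DOX1 was the highest library, and MMP2. In DOX, MMP2 had a mean of 162 ± 18.6 CPM, and in MYO 207 ± 30.8 CPM (SD, n = 5 each), with overlapping ranges, and its adjusted p in edgeR was 0.692. Between Hyper and Control, 0 members passed in edgeR, 10 had an unadjusted p under 0.05 (3 with higher and 7 with lower values in Hyper), near the share of 17.8% over all genes, and DESeq2 called 2, both lower, with 2.30% of all genes. Here 0 of all 13552 genes passed in edgeR. Without Control2, 13 members passed (5 higher and 8 lower), with 18.4% of all genes (9.32% higher and 9.08% lower), and without Hyper1 4, with 773 of 13795 genes. With table names Hyper had 3 members higher and 26 lower than Control (18.7% and 17.2% of all genes).

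The balance of proteases and inhibitors was measured in each library as the mean log2 CPM of the tested members of a subfamily minus that of the 4 TIMPs. The mean of the ADAMs includes ADAM11, ADAM22 and ADAM23, which lack protease activity, so that it is not a balance of proteases alone. Since genes of unequal length enter the mean, only differences between libraries can be read, and no test was made of such a score over chosen genes. For the MMPs the difference was -2.78, -2.49, -2.20, -2.48 and -2.26 in DOX and -2.17, -2.50, -2.55, -2.40 and -2.54 in MYO. It was -3.01, -2.67 and -2.96 in Hyper, -3.02, -2.97 and -3.14 in the RemoLV-labelled and -3.33, -2.76 and -3.41 in the Control libraries. DOX and MYO were at the upper end, with DOX1 inside the Hyper range, and Control2 was apart from the other 2 Controls. DOX and MYO lay 0.44 above Hyper on this log2 scale, with a pooled SD of 0.19 within groups, and 0.706 above it when CPM were summed. The groups were in the order MYO, DOX, Hyper, RemoLV and Control, with DOX and MYO at -2.44 ± 0.23 and -2.43 ± 0.15 (SD, n = 5 each) not differing beyond their spread. With summed CPM in place of mean logs, so that MMP2 weighed most, RemoLV came above Hyper, as it did when members under 1 CPM on average were left out.

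For the ADAMs the values were -1.74 ± 0.23 in DOX and -1.71 ± 0.14 in MYO (SD, n = 5 each), with -1.99 ± 0.20 in Hyper, -2.25 ± 0.07 in the RemoLV-labelled libraries and -2.18 ± 0.23 in Control (SD, n = 3 each). DOX and MYO lay 0.26 above Hyper with a pooled SD of 0.19, and the RemoLV-labelled libraries were at the lower end with Control, although they came above Hyper and Control when CPM were summed. For the ADAMTS genes, DOX had -2.14 ± 0.28 and MYO -2.38 ± 0.28 (SD, n = 5 each), and the other 3 groups were between -2.76 and -2.71 with SDs of 0.23 to 0.23. DOX and MYO together were 0.46 above Hyper, with a pooled SD of 0.26. With summed CPM the order was DOX, RemoLV, Control, MYO and Hyper, and MYO minus Control went from 0.33 to -0.21.

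Ratios of counts within a library need no scaling between libraries. MMP2 and TIMP2 form 1 such pair, since TIMP2 both inhibits MMP2 and bridges its proenzyme to MMP14. The ratio of MMP2 to TIMP2 counts was 0.838, 0.809 and 0.726 in Control and 1.14, 1.41 and 1.02 in Hyper. It was 1.06, 1.06, 1.25, 1.28 and 1.69 in DOX, 2.12, 1.23, 1.4, 1.69 and 0.998 in MYO and 1.4, 1.34 and 1.29 in the RemoLV-labelled libraries. All 3 Control libraries were below 1 and below each of the 16 others, of which MYO5 was the lowest. With table names these 3 libraries are RemoLV, so that RemoLV would have the lowest ratios. The highest ratios within DOX and MYO were in DOX5 and MYO1, the libraries that the table exchanges. For ADAM17 and its inhibitor TIMP3 the ratio was 0.0478, 0.0724, 0.101, 0.0794 and 0.0887 in DOX and 0.0905, 0.0703, 0.0709, 0.0705 and 0.0762 in MYO. Hyper had 0.0343, 0.0566 and 0.0592, and 9 of the 10 doxorubicin libraries, all but DOX1, were higher. For the aggrecanase ADAMTS5 and TIMP3 it was 0.029, 0.0357 and 0.0611 in Hyper and at most 0.0295 in DOX and MYO, so that Hyper1 overlapped with them. All 7 ratios computed overlapped between Hyper and the doxorubicin libraries. MMP14 to TIMP2 was 0.28, 0.889 and 0.384 in Hyper and 0.474 to 1.04 in DOX and MYO, with Hyper2 inside their range. ADAM10 to TIMP1 was 8.28, 4.17 and 2.42 in Hyper and 0.781 to 4.69 in DOX and MYO. For MMP2 to TIMP1 and ADAMTS4 to TIMP3 the ranges of DOX and MYO, from 2.81 to 18.5 and from 0.00873 to 0.323, included at least 1 Hyper library.

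**Figure D4:**
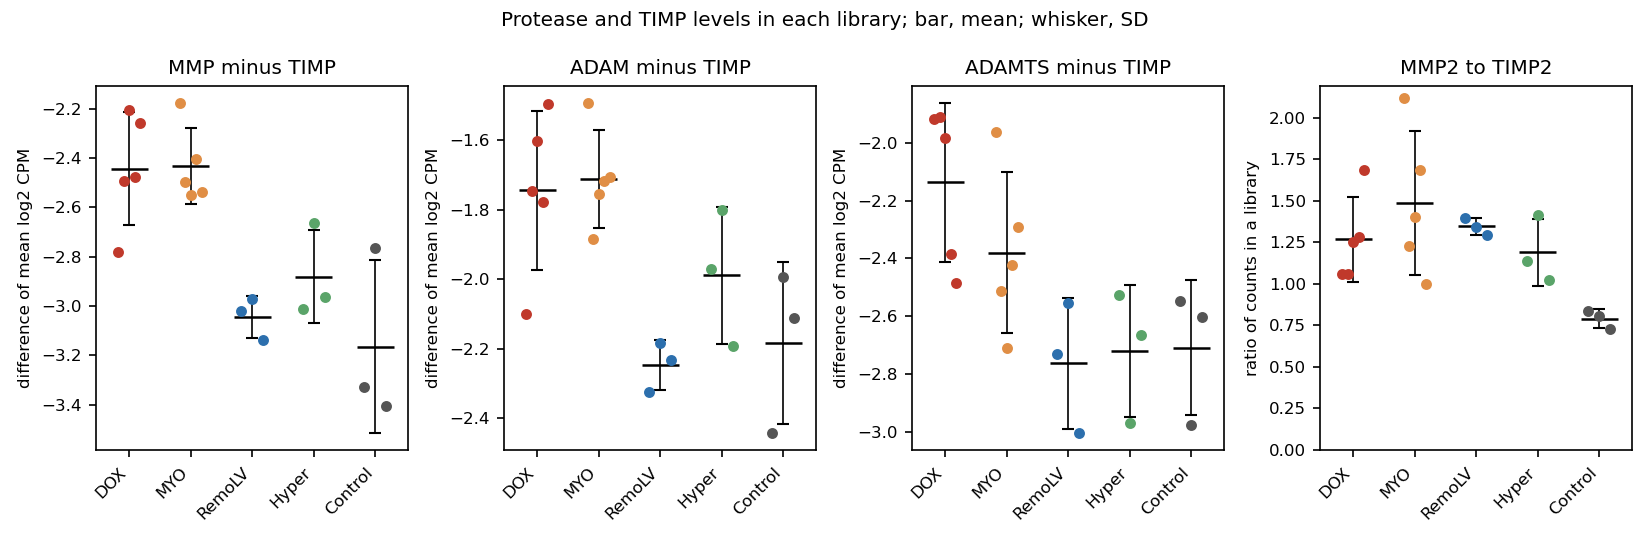
Mean log2 CPM of the tested MMPs, ADAMs and ADAMTS genes minus that of the TIMPs, and the ratio of MMP2 to TIMP2 counts, in each library by file label (points), with the group mean and SD. DOX and MYO have the highest means in the first 3 panels, and the 3 Control libraries, at 0.726 to 0.838, are lower than all others in the ratio. With table names these 3 libraries are RemoLV.

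Some members differed widely between libraries of 1 group. ADAMTS4, an aggrecanase induced by inflammatory cytokines, had 219.6, 10.2, 11.06, 6.23 and 4.2 CPM in DOX and 92.4, 2.44 and 62.9 CPM in Control. In the other 3 groups it was at 0.0891 to 8.52 CPM. DOX1, Control1 and Control3 were therefore above all 16 others. ADAMTS1 had 382, 134, 78.7, 69.5 and 44.7 CPM in DOX and 266, 60.8 and 266 CPM in Control, with the same 3 libraries highest and RemoLV2 next at 167 CPM. TIMP1, the inducible TIMP, had 55.6, 12.8, 13.4, 13.8 and 11.3 CPM in DOX and 50, 8.91 and 31.2 CPM in Control, and at most 19 CPM in any library but these 3. For MYO against Control the log2 fold change of TIMP1 was -1.23 ± 0.49 (SE, adjusted p = 0.0494) by edgeR, which was lost without Control1 (adjusted p of 0.356), without Control3 (0.118) and without any 1 of the MYO libraries. For DOX against Control it was -0.48 ± 0.48 (SE, adjusted p = 0.446), and it passed without DOX1 with a log2 fold change of -1.23 (adjusted p of 0.0107). The direction of TIMP1 in DOX turned without Control1 and with table names.

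Some of 8 genes of the acute response, a list chosen after these values were seen, were high in the same 3 libraries. The immediate-early gene FOS had 597 CPM in DOX1, 49 in Control1 and 29.9 in Control3, while MYO4 also had 34.1. SOCS3, the feedback inhibitor of cytokine signalling, had 70.1, 90.9 and 88.4 CPM and at most 12.2 CPM elsewhere. JUNB, IER3 and ZFP36 also had their 3 highest values there. EGR1, ATF3 and NR4A1 did not: EGR1 was at 31.8 and 30.5 CPM in Control1 and Control3, below Control2 with 50.1, and DOX2 was above both for ATF3 (83.5 CPM) and NR4A1 (171 CPM). The 8 genes summed to 5751 CPM in DOX1, 604.1 in Control1, 538.6 in Control3 and 476.4 in DOX2, and to at most 388.2 CPM in the other 15 libraries. Red blood cell markers also set Control1 and Control3 apart: HBB was at 337 and 325 CPM there, 35.1 in Control2, 108 in DOX1 and at most 189 CPM in the other libraries. The part of these genes in the differences of ADAMTS4, ADAMTS1 and TIMP1 was not tested.

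**Figure D5:**
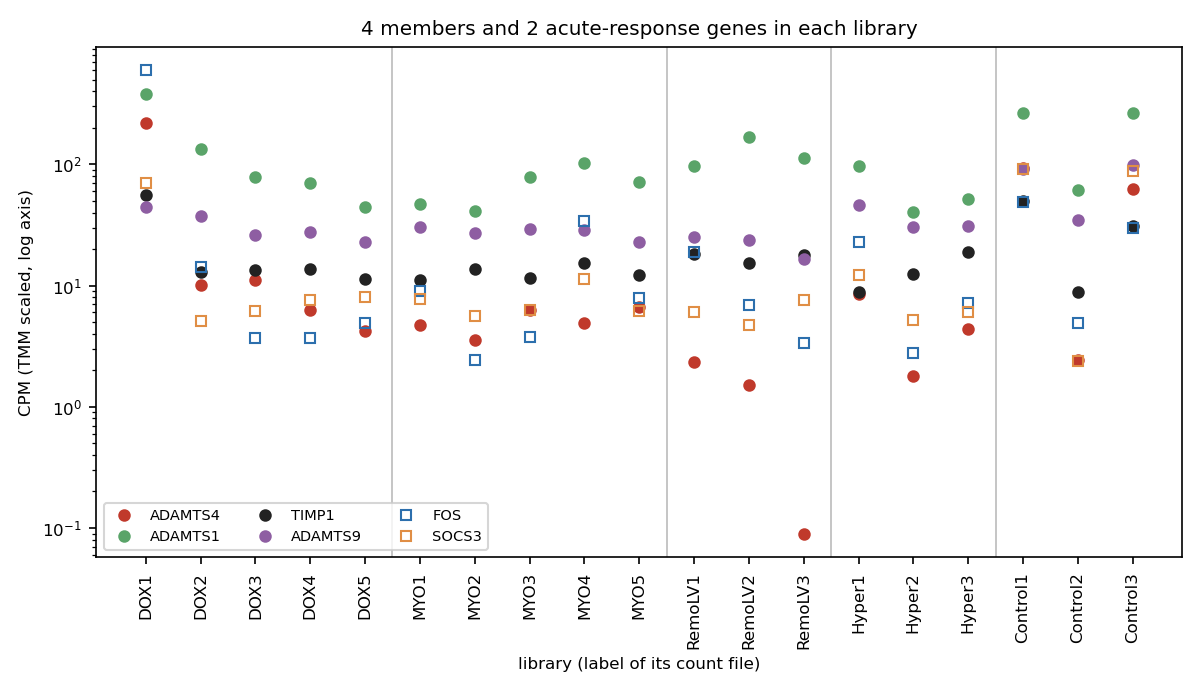
CPM on a log axis of ADAMTS4, ADAMTS1, TIMP1 and ADAMTS9 (filled points) and of FOS and SOCS3 (open squares) in each library. DOX1, Control1 and Control3 hold the 3 highest values of ADAMTS4, ADAMTS1, TIMP1 and SOCS3.

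ADAMTS1 and ADAMTS5 are neighbours on chromosome 13, with a gap of 67.1 kb between their RefSeq genes on the minus strand. In DOX1, ADAMTS1 was the highest of all libraries and ADAMTS5 the lowest with 6.05 CPM, next to DOX3 with 6.07 CPM. In Control1 and Control3, where ADAMTS1 was also high, ADAMTS5 was at 10.5 and 13.3 CPM, against a mean of 10.5 CPM over all libraries. ADAMTS8 and ADAMTS15, both on chromosome 9, were both highest in DOX1, at 12.9 and 36.4 CPM.

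ADAMTS20, a versicanase of embryonic tissue, also varied widely within groups. It had 33.1, 19.9, 12, 0.733 and 0.924 CPM in DOX, 16.6, 6.1, 0.564, 0.519 and 9.22 CPM in MYO and 29.5, 0.753 and 10.1 CPM in Hyper. The RemoLV-labelled libraries, at 78.5, 99.4 and 87.4 CPM, were higher than all others, but the adjusted p in edgeR was 0.114 against Control and 0.0767 against Hyper. The 4 members that were not tested reached at most 18 counts in a library for ADAM7, 12 for ADAMTS13, which cleaves von Willebrand factor, 10 for ADAMTS18 and 12 for MMP27.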

How the data were processed

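Poly(A) RNA of 19 pig hearts was sequenced strand-specifically. The deposited counts, 1 file per library, were made by the authors with STAR and HTSeq 0.11.1 against Sscrofa11.1, and give reads per Ensembl gene. The deposited expression table holds log2 values that the authors normalised with DESeq2, gene identifiers and symbols, and fold changes and adjusted p-values of their own comparisons, which were not used. It served for symbols and for its column names only, which were matched to the count files by rank correlation.

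Counts were tested in edgeR 4.0.16 (R 4.3.3) with TMM scaling, filterByExpr and the quasi-likelihood F test, fitting 5 groups in 1 model. The Benjamini-Hochberg adjustment was made over 13552 genes, with a threshold of 0.05 and no threshold on fold change. Balances are means of log2 CPM with a prior count of 2. DESeq2 1.42.0, RLE size factors, other filters, a replicate block, fits of only the groups compared, fits without the RemoLV-labelled libraries and leaving out each library were the alternatives. Members and gene lists were chosen with earlier results of these data known. Members named by rule were all TIMPs and, in each other subfamily, the 4 members with the smallest p over the 5 groups and the 2 with the highest mean CPM, 23 in all. Totals of 9527710 to 20370209 counts make members of a few counts imprecise. The procedure was tested on simulated counts. Figures were drawn with matplotlib 3.10.9.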

Additional observations from a re-analysis of the deposited data

Results flagged for a closer look

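Of 106 groups of 5 libraries tested, each being 1 member in DOX or MYO, 8 had a library whose gap to the nearest other, divided by the range, was above the Dixon critical value of 0.71. About 1 in 20 would be found by chance. All were in DOX, 5 of them in DOX1 and the others in DOX5.

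DOX1 had the highest level of ADAMTS4 with a log2 CPM of 7.779, against 2.119 to 3.486 in DOX2 to DOX5. It was likewise the highest for TIMP1 (5.801, others 3.522 to 3.803), for ADAMTS8 (3.707, others -0.02454 to 0.9076) and for ADAM8 (2.73, others 0.8789 to 1.384), and it was the lowest for TIMP4 (2.602, others 3.067 to 3.204).

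DOX5, the library that the expression table names MYO1, had the lowest TIMP2 with a log2 CPM of 6.487, against 7.057 to 7.205 in the other 4. It was also the lowest for MMP23B (3.564, others 4.06 to 4.258) and for ADAMTS10 (3.691, others 4.159 to 4.317). What sets these libraries apart was not tested.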

How the results depend on the processing

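For 42 log2 fold changes of members given above, 380 of 403 fits that left out 1 library and 274 of 278 other fits with file labels kept both the direction and the side of the threshold. With table names, tried for these fold changes after seeing the data, 23 of the 42 were from comparisons whose libraries change, and 4 kept both, 5 lost the call and 14 turned. Against Control, RemoLV then had -2.46 for ADAM19, -1.84 for MMP2, -3.08 for ADAMTS7, -1.98 for TIMP4, -1.08 for TIMP2, 1.75 for ADAMTSL5, -1.42 for ADAM23, -1.27 for MMP24 and 1.77 for ADAMTS9. Against Hyper it had -0.403 for ADAM19 and -0.246 for TIMP4, ADAMTS9 had 0.610 in DOX and 0.262 in MYO against Control, and TIMP1 0.327 in DOX. Leaving out 1 library in DOX and MYO against Hyper gave -0.082 (without DOX1) to 0.645 for TIMP1, -0.226 to 0.145 (without Hyper1) for TIMP3 and -0.187 to 0.087 (without Hyper3) for TIMP4, and in DOX against Control it gave -1.23 to 0.103 (without Control1) for TIMP1, so that the direction turned for these 4. None of them had passed with all libraries. Members that passed in Hyper against Control numbered 0 in edgeR, 2 in DESeq2, 29 with table names, and 0 to 13 when 1 library was left out. Over all genes these fits gave 0, 2.30%, 4856 of 13552 genes, and 0 to 18.4%. RemoLV against Hyper went from 29 to 0 with table names, by which 6 libraries change groups, and from 4818 to 0 over all 13552 genes. The MMP balance of DOX and MYO against Hyper was 0.44, and 0.706 with summed CPM. Between RemoLV and Control it was 0.12, 0.452 for members of at least 1 CPM, 1.08 with summed CPM and -0.12 with table names, and the cause was not tested.

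Replicate numbers did not pair the libraries, with correlations of same-numbered deviations from -0.246 to 0.242 (median 0.00687, 32 pairs). With the number as a replicate block, 22 members passed in DOX against Control (25 without) and 23 in MYO against Control (28). In RemoLV against Control 27 passed (27) and in DOX and MYO against Hyper 19 (20). Of all 13552 genes, 4793, 4801, 6104 and 3609 passed in these fits, against 5704, 5748, 6393 and 4422 without the block. TIMP1 in MYO against Control no longer passed with the block (-0.84, adjusted p of 0.21 in edgeR). Members of a few CPM rest on few counts, at most 88 in a library for ADAM12, 123 for ADAMTS14 and 95 for MMP24. The part of depth in their precision was not tested.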
